A study of Mus musculus with 4 samples.

Results

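The genes described are 9 of the 31053 mouse genes in the count matrix of 1 single-cell RNA-seq library. They were chosen by name as the TGF-beta ligands (Tgfb1, Tgfb2 and Tgfb3), their signalling receptors and co-receptor (Tgfbr1, Tgfbr2 and Tgfbr3) and 3 latent TGF-beta binding proteins (Ltbp1, Ltbp2 and Ltbp3), and all 9 were found. The cells were isolated from the proximal and distal tibia of 1 male mouse at postnatal day 6 (P6), with both tibiae pooled and the secondary ossification centres left out. The mouse carried Col10a1Cre and Rosa26-Tdtomato and was heterozygous for Irx3 (+/Δ) and Irx5 (+/-), so every cell came from this Irx3/5 heterozygous control and there was no wild-type sample. Cre driven by the Col10a1 gene acts in hypertrophic chondrocytes (HCs), so that they and their descendants carry the tdTomato reporter, but Cre also removes 1 Irx3 allele in those same cells.

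TGF-beta is secreted as an inactive complex. The ligand stays bound to its own propeptide, which is in turn tied to a latent binding protein that anchors the complex in the extracellular matrix, and bone matrix is a well-known store of the latent factor. Once freed, often by integrins that pull on the complex, the ligand is bound by the type II receptor TGFBR2, which recruits the type I receptor TGFBR1 and leads to phosphorylation of SMAD2 and SMAD3, while TGFBR3 (betaglycan) is a co-receptor without kinase activity that presents the ligand and is known to matter most for TGF-beta2. In the growth plate the pathway is known for restraining chondrocyte hypertrophy, and in bone for recruiting osteoblast precursors and coupling resorption to formation.

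In the GENCODE annotation of GRCm38, Tgfb1 (ENSMUSG00000002603) lies on chromosome 7 from 25687002 to 25705077 on the plus strand. Tgfb2 (ENSMUSG00000039239) lies on chromosome 1 from 186622792 to 186705989 on the minus strand. Tgfb3 (ENSMUSG00000021253) lies on chromosome 12 from 86056745 to 86079041 on the minus strand. These 3 genes encode alternative ligands of the same receptors. The type I receptor gene Tgfbr1 (ENSMUSG00000007613) lies on chromosome 4 from 47353222 to 47414931 on the plus strand. Tgfbr2 (ENSMUSG00000032440) lies on chromosome 9 from 116084293 to 116175360 on the minus strand. Tgfbr3 (ENSMUSG00000029287) lies on chromosome 5 from 107106570 to 107289629 on the minus strand. The receptors are membrane proteins, and the remaining genes encode secreted matrix proteins. Ltbp1 (ENSMUSG00000001870) lies on chromosome 17 from 75005568 to 75392512 on the plus strand. Ltbp2 (ENSMUSG00000002020) lies on chromosome 12 from 84783212 to 84876532 on the minus strand, and Ltbp3 (ENSMUSG00000024940) on chromosome 19 from 5740904 to 5758532 on the plus strand. Counted genes on the opposite strand overlapped some of the 9, among them Tgfb2 (Gm29491), Tgfb3 (Ttll5) and Ltbp2 (D030025P21Rik). Strand use in the counting is not given in the sources read for this work, so for such genes reads of the overlapping gene were taken as the deposited counts assign them.

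The promoters of Tgfb1 and Tgfb2 are shown because the first results turn on these ligands. Each run is the 250 bases before the annotated start in RefSeq (GRCm38.p6), 5′ to 3′ on the gene's strand. Tgfb1 is chr7:25686752-25687001 (plus) and Tgfb2 is chr1:186705990-186706239 (minus). Capitals mark GC boxes (GGGCGG on either strand), an E-box (CACGTG) and a TATA box (TATAAA on the gene's strand), none of which overlap.
Tgfb1: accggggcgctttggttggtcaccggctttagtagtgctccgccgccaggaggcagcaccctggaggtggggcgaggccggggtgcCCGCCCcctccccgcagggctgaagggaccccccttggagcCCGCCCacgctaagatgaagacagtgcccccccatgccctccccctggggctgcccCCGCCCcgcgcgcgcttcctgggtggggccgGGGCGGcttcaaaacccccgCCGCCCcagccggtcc
Tgfb2: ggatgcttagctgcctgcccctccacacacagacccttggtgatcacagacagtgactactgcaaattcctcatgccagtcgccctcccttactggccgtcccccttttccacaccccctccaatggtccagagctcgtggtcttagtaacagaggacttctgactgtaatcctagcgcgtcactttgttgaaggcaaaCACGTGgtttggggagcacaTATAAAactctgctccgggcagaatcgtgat

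The Tgfb1 promoter held 5 GC boxes and neither of the other motifs, and 75.2% of its bases were G or C, a higher content than in 96.1% of the 32851 mouse promoters in the same table. The Tgfb2 promoter held no GC box, 1 TATA box beginning 31 bases before the start and 1 E-box beginning 51 bases before it, with 53.6% G or C. Of all promoters of this length, 32.7% held a GC box, 7.59% a TATA box and 6.02% an E-box. These matches describe the letters only. Of the 9 genes, 7 were in the promoter table, and Tgfb3 and Tgfbr3 were not.

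The library held 14181 cell barcodes. Of these, 8705 had at least 1600 detected genes, and 8255 remained after limits on mitochondrial and ribosomal reads, with a median of 13957 unique molecular identifiers (UMIs, a tag on each captured transcript that lets copies be counted once) per cell. The cells fell into 30 clusters, of which 28 were grouped into 23 classes by marker genes. There were 1946 chondrogenic cells in 6 classes, 1490 osteogenic and stromal cells in 4, 944 vascular cells in 2 and 3688 blood cells in 11. The other 187 cells, in 2 clusters that mixed cartilage collagen with neutrophil genes or haemoglobins, were left unnamed. Class names were rebuilt from the data and are given as "-like". One chondrogenic cluster of 107 cells had Col10a1, the HC marker, as its first gene at 11270 counts per 1000000 UMIs (CPM). However, F13a1 and Fn1 of the monocyte list also stood among its first 10 genes, so it is called the Col10a1-led cluster. Levels are CPM, in which the UMIs of a gene in all cells of a class are divided by the UMIs of every gene in those cells, with exact Poisson 95% intervals. There was 1 library and no replicate, so the intervals cover counting error alone, no test between groups was possible, and p-values are not given. The Col2a1 transcript of cartilage, which blood cells do not make, was counted at 257 to 1536 CPM in 10 of the 11 blood classes and at 4985 CPM in the 29 T or NK-like cells, against 45123 CPM in columnar chondrocyte-like cells. Low levels of cartilage or stromal genes in blood classes are therefore read as background. Irx3 was highest in immature osteoblast-like cells (94.9 CPM) and Irx5 in the Col10a1-led cluster (78.3 CPM), which does not check the heterozygous genotype.

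By compartment, 1 of the 9 genes was highest in chondrogenic cells (Tgfb2), 5 in osteogenic and stromal cells (Tgfb3, Tgfbr3 and the 3 latent binders) and 3 in vascular cells (Tgfb1, Tgfbr1 and Tgfbr2). None was highest in blood. The Tgfbr3 levels of osteogenic and stromal cells (44.2 CPM, 41.4 to 47.0) and vascular cells (44.1 CPM, 40.4 to 48.1) were not separable by counting error.

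Tgfb1, the ligand that dominates in immune cells, was the most widely spread of the 9 genes, with at least 48.1 CPM in every class. It was highest in some of the blood classes and in endothelium. Its level was 328 CPM (301 to 356) in an unnamed group of 223 blood cells led by Tnf and Ccl3. It was 297 CPM (279 to 316) in basophil or mast-like cells, 282 CPM (272 to 292) in endothelial-like cells and 254 CPM (193 to 327) in the 29 T or NK-like cells. Each overlapped with the next, so neighbours cannot be ranked, while the intervals of the Tnf-led group and of endothelial-like cells did not overlap. Which of the first 3 came first, however, changed with the clustering. The basophil or mast-like class mixed cell types. Its basophil or mast-like sub-clusters held 26 and 22 cells, while 32 were megakaryocyte-like, 28 promyelocyte-like, and 63 in an unnamed sub-cluster with haemoglobin genes. Monocyte-like cells followed with 237 CPM (223 to 251), plasmacytoid dendritic-like cells with 222 CPM (201 to 245) and mature osteoblast-like cells with 217 CPM (208 to 227). Mature osteoblast-like cells thus stood beside these leucocytes, at a level that overlapped with those of plasmacytoid dendritic-like cells and the Col10a1-led cluster (198 CPM, 184 to 213). Other blood classes were lower. Among them were promyelocyte-like (151 CPM, 142 to 160), neutrophil-like (80.6 CPM, 73.8 to 87.9) and late and early erythroid-like cells (57.5 CPM, 51.7 to 63.8). The 2 lowest classes were both chondrogenic, with 50.6 CPM (44.4 to 57.5) in the other chondrogenic cells and 48.1 CPM (44.4 to 52.1) in columnar or maturing chondrocyte-like cells.

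Within blood, Tgfb1 varied by sub-cluster. The megakaryocyte-like sub-cluster of the basophil or mast-like class had 450 CPM (404 to 500.5). It was named from Pf4 and Itga2b among its first 10 genes, which also held Car1 of the early erythroid list. Ppbp, another gene of the megakaryocyte list, was at only 2.62 CPM in the whole class. Platelets, which megakaryocytes shed, are a well-known reservoir of this ligand, but a link to these cells was not tested. The other sub-clusters of the basophil or mast-like class ranged from 242 to 259 CPM. A macrophage-like sub-cluster led by H2-Eb1 (59 cells) had 439 CPM (387 to 496). Osteoclast-like cells (109 cells), the bone-resorbing relatives of macrophages, had 88.6 CPM (77.3 to 101), well below that macrophage-like sub-cluster of the same class. Against the rest of their class, the first genes of the osteoclast-like cells were Cxcl12, Mmp9 and Ctsk, with Igfbp5 also among them. Cxcl12 and Igfbp5 are also among the first genes of marrow stromal-like cells, and their part in this level was not tested. The rest of the macrophage and osteoclast-like class, sub-clusters of 73, 75, 51 and 13 cells, was left unnamed. C1qa and C1qb stood among the first genes of those of 73, 75 and 13 cells, and Acp5 and Ctsk among those of the 51. The whole class had 197 CPM (187 to 207), so the macrophage-like value is that of 59 cells only. Among B lineage-like cells, the Igkc-led cluster of light-chain expressing cells had 241 CPM (223 to 260) and the Vpreb1-led cluster of precursors 146 CPM (135 to 157), so that these intervals did not overlap.

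Tgfb2, the ligand known for roles in mesenchyme and heart, had the opposite distribution. Pericyte or smooth muscle-like cells had the highest level, 220 CPM (193 to 250), followed by periosteal or tendon fibroblast-like cells with 182 CPM (167 to 197), and these neighbours overlapped. The Col10a1-led cluster (152 CPM, 140 to 166), Ucma-rich chondrocyte-like cells (146 CPM, 138 to 154) and pre-hypertrophic-like cells (143 CPM, 135 to 150) came next and overlapped with each other. Columnar or maturing chondrocyte-like cells had 117 CPM (111 to 123). Mature osteoblast-like cells (34.5 CPM, 30.8 to 38.5) and endothelial-like cells (33.4 CPM, 29.98 to 37.0) were the lowest outside blood. The blood classes ranged from 0.845 to 8.60 CPM. After thinning each cell to 5000 UMIs, 38.1% of chondrogenic cells had a Tgfb2 UMI (36.0% to 40.3%, exact binomial interval) and 1.22% of blood cells (0.877% to 1.64%), leaving out 5 and 232 shallower cells. Without thinning the shares were 77.9% and 2.85%, at median depths of 21997 and 12067 UMIs. The share in blood is read as background.

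Tgfb3, the ligand known for palate and tendon development, was the most restricted of the 3. Periosteal or tendon fibroblast-like cells stood above every other class with 85.2 CPM (75.2 to 96.1). Pericyte or smooth muscle-like cells (49.2 CPM, 36.8 to 64.3), Cxcl12-abundant marrow stromal-like cells (46.7 CPM, 39.5 to 54.8) and immature osteoblast-like cells (43.7 CPM, 38.7 to 49.1) overlapped with one another. The Col10a1-led cluster had 17.7 CPM (13.6 to 22.6) and mature osteoblast-like cells 11.5 CPM (9.37 to 13.9). All other classes were below 10 CPM.

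**Figure D1:**
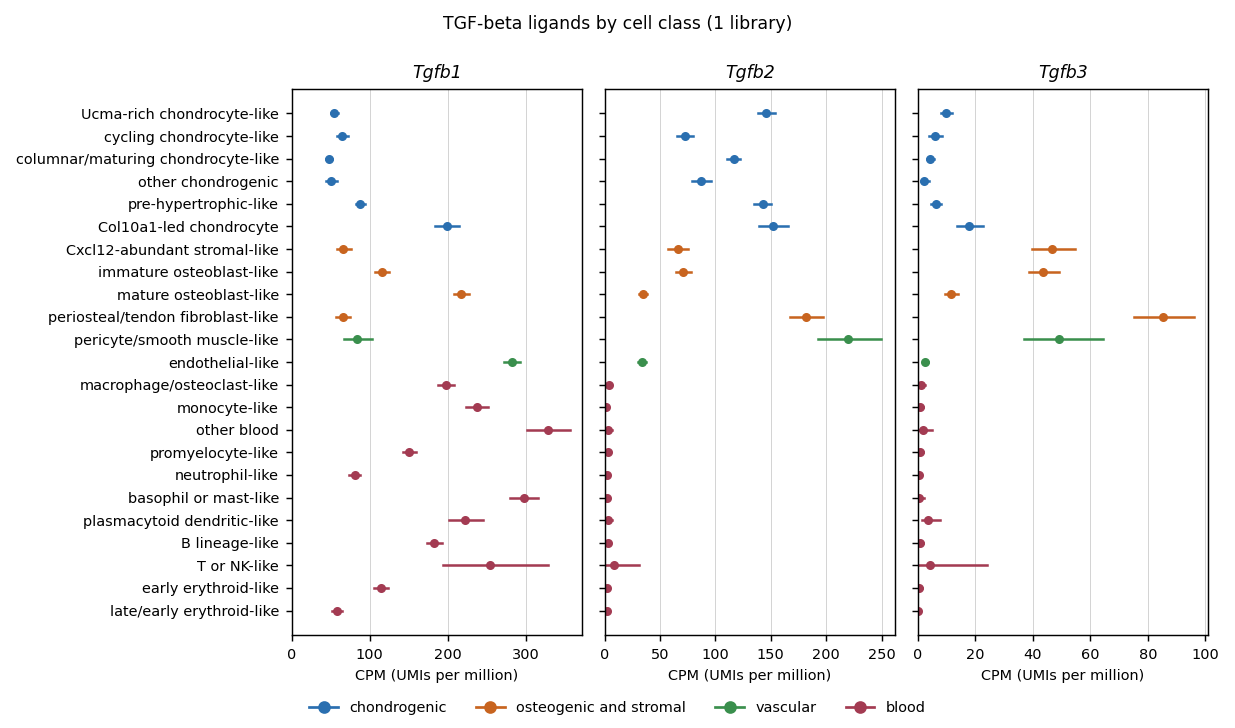
CPM of Tgfb1, Tgfb2 and Tgfb3 (x axes, linear) in the 23 cell classes (y axis), coloured by compartment, where points are class totals and bars are exact Poisson 95% intervals. Tgfb1 lies between 48.1 and 328 CPM in every class, while Tgfb2 and Tgfb3 lie at or below 8.60 and 4.30 CPM in all blood classes.

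Counting the UMIs of the 3 ligands together gives the balance of Tgfb1 and Tgfb2 within each class. These are shares of captured UMIs, and differences in capture between the genes were not corrected, so a share is compared only with the same share in other classes. Ucma-rich chondrocyte-like cells are placed first here, as taken to be nearest the resting side of the growth plate. Of their marker list, Ucma, Cytl1 and Sfrp5 were highest in them, but Scrg1, Clu and Sfrp1 in other classes. Pthlh, a resting marker in the study, was 10.2 CPM in them and 18.5 CPM in fibroblast-like cells. In the Ucma-rich cells, Tgfb1 made up 26.0% of the 1986 ligand UMIs (24.1% to 28.0%, exact binomial 95% interval). The share was 28.5% (26.6% to 30.4%) in columnar or maturing chondrocyte-like cells and 37.1% (35.1% to 39.1%) in pre-hypertrophic-like cells. It reached 53.8% (51.1% to 56.6%) in the Col10a1-led cluster. Tgfb2 levels overlapped between Ucma-rich, pre-hypertrophic-like and Col10a1-led cells (146, 143 and 152 CPM). The higher Tgfb1 share there went with more Tgfb1 (54.8, 87.8 and 198 CPM in the same order). Immature osteoblast-like cells had 50.1% (47.5% to 52.7%), which overlapped with the Col10a1-led cluster, and mature osteoblast-like cells 82.5% (81.0% to 84.0%). Ucma-rich and columnar or maturing cells overlapped as well, while the other steps from chondrocyte to mature osteoblast-like cells did not. Cycling chondrocyte-like cells, which have no fixed place in this order, had 45.1% (41.5% to 48.8%). The Tgfb3 share was 18.98% (17.01% to 21.08%) in immature osteoblast-like cells and 4.36% (3.58% to 5.25%) in mature osteoblast-like cells. Cxcl12-abundant marrow stromal-like cells had the most even mix, with 214 UMIs each of Tgfb1 and Tgfb2 and 151 of Tgfb3. In the vessel wall the classes differed sharply. Endothelial-like cells had 88.7% Tgfb1 (87.6% to 89.8%), and pericyte or smooth muscle-like cells 62.4% Tgfb2 (57.3% to 67.3%). In the 11 blood classes, Tgfb1 was between 95.2% and 99.4% of ligand UMIs.

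**Figure D2:**
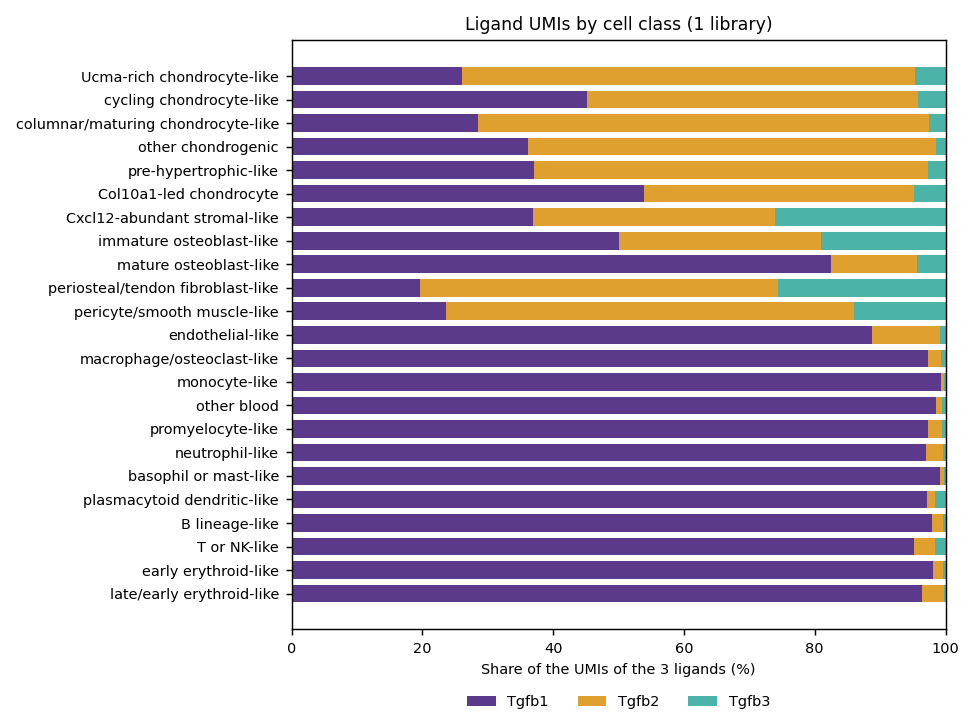
Share of ligand UMIs (x axis, percent) that belonged to Tgfb1, Tgfb2 and Tgfb3 in the 23 cell classes (y axis), as stacked bars that each sum to 100%. The Tgfb1 share is 26.0% in Ucma-rich chondrocyte-like cells, 53.8% in the Col10a1-led cluster, 82.5% in mature osteoblast-like cells and at least 95.2% in every blood class.

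Tgfbr1, the type I receptor kinase, was highest in macrophage and osteoclast-like cells with 135 CPM (127 to 144), above all other classes. The macrophage-like sub-cluster (139 CPM, 110 to 173) and the osteoclast-like sub-cluster (127 CPM, 114 to 142) overlapped, unlike their Tgfb1 levels. The Tnf-led blood group had 90.4 CPM (76.8 to 106), plasmacytoid dendritic-like cells 73.3 CPM (61.6 to 86.7) and fibroblast-like cells 62.2 CPM (53.7 to 71.6). Chondrogenic classes ranged from 13.4 to 26.4 CPM. The late and early erythroid-like cells were lowest at 5.04 CPM (3.42 to 7.15).

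Tgfbr2, the ligand-binding type II receptor, was highest in endothelial-like cells with 177 CPM (169 to 186), and fibroblast-like cells followed with 135 CPM (122 to 149). T or NK-like cells had 116 CPM (76.5 to 169), with few UMIs behind the value. Along the growth plate the level was 75.9 CPM (70.5 to 81.7) in Ucma-rich chondrocyte-like cells, 52.7 CPM (48.8 to 56.8) in columnar or maturing chondrocyte-like cells and 30.7 CPM (27.3 to 34.4) in pre-hypertrophic-like cells. In the Col10a1-led cluster it was 24.4 CPM (19.5 to 30.1), which overlapped with the pre-hypertrophic-like level. Among these classes, Tgfbr2 thus stood lower in each later one up to the pre-hypertrophic-like. The Tgfb1 share stood higher in pre-hypertrophic-like than in Ucma-rich and columnar or maturing cells, which overlapped in it. The other chondrogenic cells, outside this order, had 23.3 CPM of Tgfbr2 (19.2 to 28.1). B lineage-like clusters had 64.8 CPM (57.7 to 72.5) in the Vpreb1-led, 104 CPM (92.0 to 117) in the Igkc-led and 168 CPM (128 to 216) in the Iglc1-led cluster.

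Tgfbr3, the co-receptor, was concentrated in Cxcl12-abundant marrow stromal-like cells, which support blood progenitors, with 165 CPM (151 to 180). The next classes were endothelial-like (48.0 CPM, 43.9 to 52.3), fibroblast-like (46.6 CPM, 39.3 to 54.9) and immature osteoblast-like cells (35.6 CPM, 31.1 to 40.5). Mature osteoblast-like cells had 6.65 CPM (5.09 to 8.55). Early erythroid-like cells had 14.8 CPM (11.6 to 18.5), the only blood class above 10 CPM.

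Endothelial-like cells were not uniform in these receptors. Within the Fabp4-led cluster, 4 sub-clusters of 50, 24, 20 and 26 cells were left unnamed because genes of neutrophils, erythroid cells, B cells or cartilage led them, and these had 105 to 258 CPM of Tgfb1 and 105 to 157 CPM of Tgfbr2. The 5 others had 293 to 328 CPM of Tgfb1 and 121 to 254 CPM of Tgfbr2. A cluster of 71 cells led by Eln, Stmn2 and Gja4, genes of arterial endothelium and of the elastic vessel wall, had none of the endothelial marker list among its first 10 genes. It had 375 CPM of Tgfbr2 (331 to 422). The 772 cells of the Fabp4-led cluster had 163 CPM (155 to 171). The Eln-led cells also had more Tgfb2 (160 CPM, 132 to 192, against 24.2 CPM, 21.3 to 27.5) and more Ltbp1 (99.6 CPM, 77.8 to 126, against 5.96 CPM, 4.54 to 7.69). By contrast, their Tgfbr3 level was lower, at 23.9 CPM (13.9 to 38.2) against 49.7 CPM (45.4 to 54.3). The highest endothelial Tgfbr3 level, 116 CPM (97.8 to 136), was found in a sinusoidal endothelial-like sub-cluster of 86 cells that expressed Stab2, a scavenger receptor of marrow sinusoids. Against the rest of the endothelium its first genes were Cxcl12, Stab2, Mmp13 and Lpl. Cxcl12 and Lpl are also among the first genes of the marrow stromal-like class, which had the most Tgfbr3, and their part in this level was not tested. Tgfb1 was 246 CPM (210.5 to 285) in the Eln-led and 285 CPM (274 to 295) in the Fabp4-led cluster, and these intervals overlapped.

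**Figure D3:**
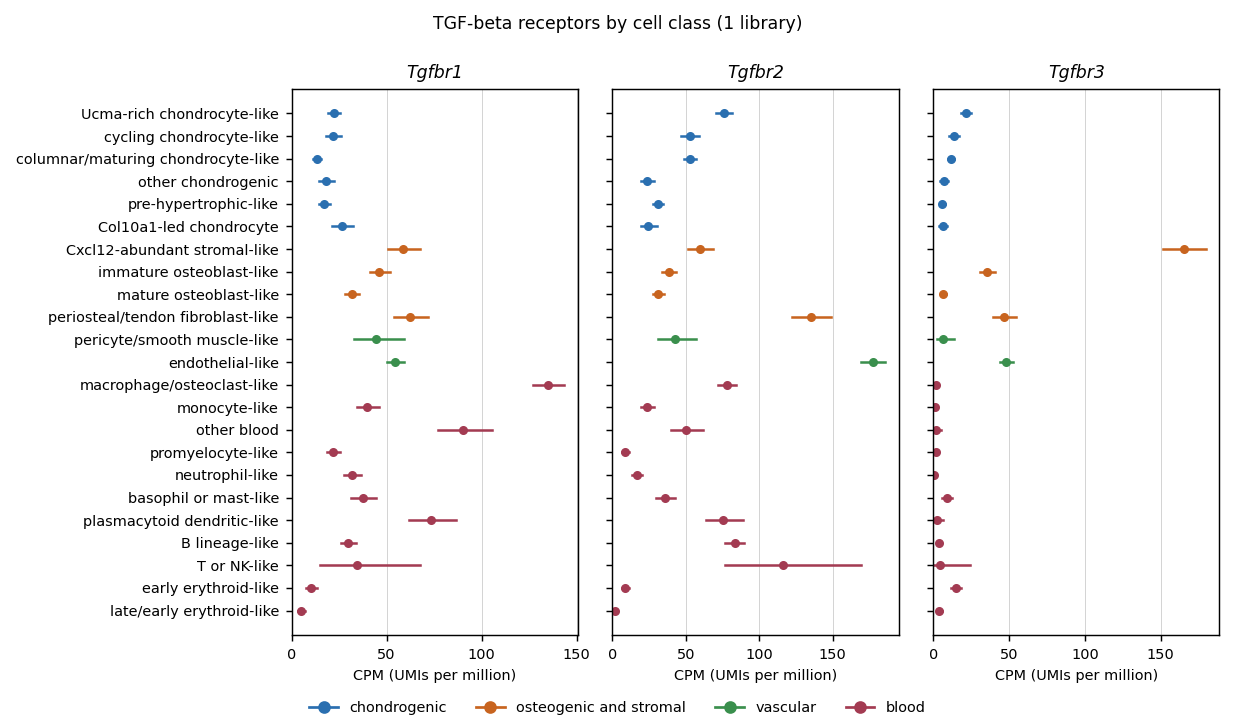
CPM of Tgfbr1, Tgfbr2 and Tgfbr3 (x axes, linear) in the 23 cell classes (y axis), coloured by compartment, where points are class totals and bars are exact Poisson 95% intervals. The highest classes are macrophage and osteoclast-like for Tgfbr1 (135 CPM), endothelial-like for Tgfbr2 (177 CPM) and Cxcl12-abundant stromal-like for Tgfbr3 (165 CPM).

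The 3 latent binders shared their highest class, periosteal or tendon fibroblast-like cells, with 143 CPM of Ltbp1 (130 to 157), 58.9 CPM of Ltbp2 (50.7 to 68.1) and 220 CPM of Ltbp3 (204 to 237). LTBP1 and LTBP3 tether latent TGF-beta, while LTBP2 is a microfibril protein that does not bind the latent complex. Of the 2 fibroblast-like clusters, the Aspn-led one (119 cells) was above the Mfap5-led one (164 cells) in all 3 binders and in Tgfb3. Ltbp2 was 102 CPM (84.6 to 123) in the former and 33.4 CPM (25.8 to 42.6) in the latter. Ltbp1 was 206 CPM (181 to 234) against 106 CPM (92.5 to 122).

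After fibroblast-like cells, Ltbp1 was highest in the osteogenic classes. Cxcl12-abundant marrow stromal-like cells had 79.8 CPM (70.4 to 90.1), immature osteoblast-like cells 40.0 CPM (35.2 to 45.2) and mature osteoblast-like cells 33.7 CPM (30.1 to 37.7). The Col10a1-led cluster had 17.1 CPM (13.1 to 22.0), whereas the other 5 chondrogenic classes ranged from 0.212 to 4.98 CPM. The blood classes had at most 4.82 CPM.

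Ltbp2 was above 10 CPM in 2 of the 23 classes. Cxcl12-abundant marrow stromal-like cells had 29.9986 CPM (24.3 to 36.6) after the fibroblast-like cells, and every other class had at most 6.57 CPM. No Ltbp2 UMI was counted in 4 blood classes. In the largest of them, the B lineage-like cells, a count of 0 allows up to 0.386 CPM.

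Ltbp3 was the binder with the broadest skeletal range. After the fibroblast-like cells, immature osteoblast-like cells had 114 CPM (106 to 122), the Col10a1-led cluster 99.8 CPM (89.7 to 111) and Cxcl12-abundant marrow stromal-like cells 91.5 CPM (81.4 to 103), and these neighbours overlapped. Among chondrogenic classes the middle ones were low. The level was 73.1 CPM (67.7 to 78.7) in Ucma-rich chondrocyte-like cells, 26.4 CPM (23.7 to 29.4) in columnar or maturing and 22.3 CPM (19.4 to 25.4) in pre-hypertrophic-like cells, against the higher level of the Col10a1-led cluster. Within the Ucma-rich class, the Sfrp5-led cluster had 104 CPM (92.5 to 116) and the F3-led cluster 58.5 CPM (52.7 to 64.8).

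**Figure D4:**
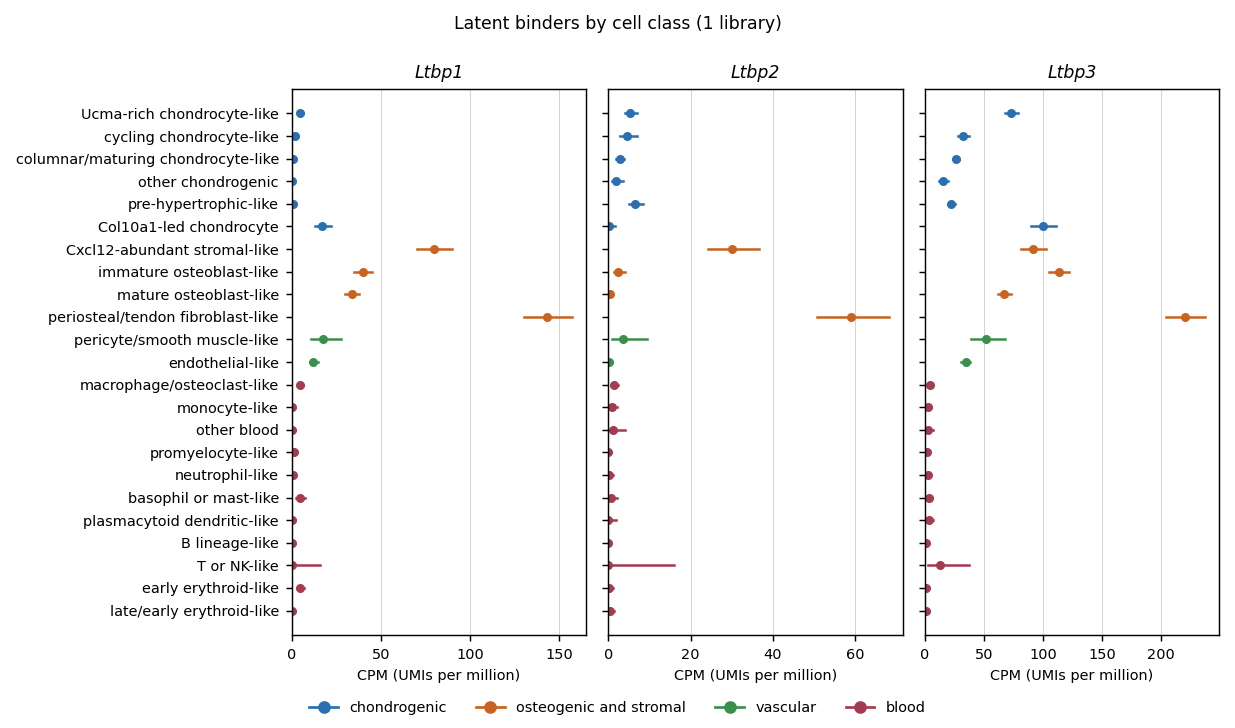
CPM of Ltbp1, Ltbp2 and Ltbp3 (x axes, linear) in the 23 cell classes (y axis), coloured by compartment, where points are class totals and bars are exact Poisson 95% intervals. Periosteal or tendon fibroblast-like cells are highest for each gene, at 143, 58.9 and 220 CPM, and the blood classes lie at or below 12.9 CPM.

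Across the 23 classes, the genes most alike in log2(CPM + 1) among the 9 were Tgfb3 and Ltbp3 (Pearson r = 0.91) and Tgfb2 and Ltbp3 (r = 0.91). Tgfb2 and Tgfb3 had r = 0.81, Tgfbr1 and Tgfbr2 r = 0.68, and Tgfb1 and Tgfb2 r = -0.53. These are descriptions over classes of 1 library that share depth and free RNA. Among 12035 other genes, those most like Tgfb1 were Zfp52 (r = 0.89), Traf1 (r = 0.84), an adaptor of TNF receptors, and Atmin (r = 0.83). Those most like Tgfb2 were Loxl2 (r = 0.98), a collagen-crosslinking lysyl oxidase, Ndn (r = 0.97) and Mapre3 (r = 0.97). For Tgfb3 they were Thbs2 (r = 0.96), Col6a2 (r = 0.94) and Antxr1 (r = 0.94), all matrix proteins or a matrix receptor. Basp1 (r = 0.89), Cyfip1 (r = 0.88) and Map4k4 (r = 0.88) were nearest to Tgfbr1. Pogk (r = 0.92), Rara (r = 0.91) and Jmjd1c (r = 0.90) were nearest to Tgfbr2. Fbf1 (r = 0.84), Smo (r = 0.84), the transducer of hedgehog signals, and Vezt (r = 0.83) were nearest to Tgfbr3. Sfrp4 (r = 0.92), Fhl1 (r = 0.91) and Cdh11 (r = 0.91), the osteoblast cadherin, were nearest to Ltbp1. Grem1 (r = 0.92), a BMP antagonist, Adamtsl3 (r = 0.91) and Mab21l2 (r = 0.86) were nearest to Ltbp2. Fgfr1 (r = 0.97), Fndc4 (r = 0.96) and C1qtnf6 (r = 0.96) were nearest to Ltbp3.

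Cartilage and bone were compared to ask how the pathway differs between the tissues on either side of the chondro-osseous junction. In the comparison of 1207 osteogenic cells (marrow stromal, immature and mature osteoblast-like) with 1946 chondrogenic cells, Tgfb2 was lower and most of the other genes higher. Tgfb1 was 156 CPM against 71.9 CPM, a log2 ratio of 1.11 (1.04 to 1.18, counting interval, with 1 CPM added to both sides). Tgfb2 was 52.4 CPM against 123 CPM (log2 ratio -1.21, -1.31 to -1.12). Tgfb3 (28.5 against 6.90 CPM), Tgfbr1 (41.4 against 18.5 CPM) and Tgfbr3 (43.8 against 11.8 CPM) were higher by 3.73-fold, 2.18-fold and 3.50-fold on the same scale. The osteogenic classes differed. Tgfbr3 was 165 CPM in marrow stromal-like but 6.65 CPM in mature osteoblast-like cells, below the chondrogenic level. Tgfb1 was 66.2 CPM (57.6 to 75.7) in marrow stromal-like cells, not above the chondrogenic level. The largest ratio was that of Ltbp1, with 43.8 against 3.0995 CPM (log2 ratio 3.45, 3.24 to 3.65). Ltbp3 was higher by a log2 ratio of 1.09, while Tgfbr2 was 38.5 against 47.5 CPM (log2 ratio -0.30, -0.41 to -0.18). Ltbp2 was 6.17 against 4.07 CPM (0.50, 0.22 to 0.78), below 10 CPM in both. Of the 8 genes with at least 10 CPM on either side, 6 were past 2-fold higher and 1 past 2-fold lower. The intervals of Tgfbr1 (0.99 to 1.26) and Ltbp3 (0.99 to 1.18) crossed the 2-fold line, and with a minimum of 1000 genes per cell 4 were higher, as Tgfb1 (0.73) and Tgfbr1 (0.92) were then inside it. Of all 8392 genes so tested, 18.7% were past 2-fold higher and 8.94% lower. The median log2 ratio was 1.12 over the 8 genes and 0.23 over all genes. Markers of other cells moved with this comparison. The macrophage list summed to 76.5 CPM in osteogenic and 14.1 CPM in chondrogenic cells, with 3 of its 8 genes past 2-fold higher and none at 0. The osteoclast list summed to 757 and 59.97 CPM, with 3 of 8 higher and 1 at 0 in each, and the endothelial list to 85.9 and 28.3 CPM, with 2 of 9 higher and none at 0. The higher genes of the osteoclast list were Acp5, Ctsk and Mmp9. Acp5 (1933 CPM) and Ctsk (1389 CPM) were highest in macrophage and osteoclast-like cells. Mmp9 was highest in immature osteoblast-like cells (1198 CPM), which are themselves osteogenic. The part of these lists in the result was not tested.

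Of 43 other genes of the pathway, 37 had 10 CPM or more here. In osteogenic cells, 12 were past 2-fold higher and 6 lower, beside 18.7% and 8.94% of all genes tested. In the matrix store, Fbn1 and Fbn2, the fibrillins on which latent complexes are laid, were 228 against 10.8 CPM and 50.03 against 2.20 CPM, and the proteoglycan Dcn 1525 against 263 CPM. Among activators, the integrin subunits Itgb3 (13.6 against 3.17 CPM) and Itgav (111 against 32.2 CPM) were higher and thrombospondin Thbs1 lower (245 against 1073 CPM). The co-receptor Eng (log2 ratio 1.76) and the decoy receptor Bambi (1.64) were higher, as was the corepressor Tgif1 (1.88), whereas the feedback inhibitor Pmepa1 was lower (-1.01). No SMAD transducer passed 2-fold. Among response genes, Col1a1 (log2 ratio 7.08), itself a marker of bone, and Tgfb1i1 (1.78) were higher and Tgfbi lower (-1.85).

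The step from pre-hypertrophic to hypertrophic chondrocytes was read from the Col10a1-led cluster (107 cells) and the pre-hypertrophic-like class (302 cells). Tgfb1, Tgfb3, Ltbp1 and Ltbp3 were past 2-fold higher in the Col10a1-led cluster. Ltbp1 was 17.1 against 1.03 CPM (log2 ratio 3.16, 2.59 to 3.73) and Ltbp3 99.8 against 22.3 CPM (2.12, 1.88 to 2.35). Tgfb1 was 198 against 87.8 CPM (1.17, 1.02 to 1.31) and Tgfb3 17.7 against 6.26 CPM (1.36, 0.90 to 1.82). Tgfb2 was 152 against 143 CPM (0.09, -0.05 to 0.24), and the interval included 0. Tgfbr1 was 26.4 against 17.1 CPM (0.59, 0.24 to 0.94) and Tgfbr2 24.4 against 30.7 CPM (-0.32, -0.65 to 0.01). Tgfbr3, below 10 CPM in both, was 6.17 against 6.05 CPM (0.02, -0.58 to 0.63). Ltbp2, with 1 UMI against 64, had a log2 ratio of -2.56 (-3.25 to -1.87) but was below 10 CPM in both and was not counted. Of 7 genes tested, 4 were past 2-fold higher and 0 lower, beside 22.4% and 5.85% of all 8037 genes, and the medians were 1.17 and 0.45. Blood-cell markers also differed here. The summed level of the neutrophil list was 4766 CPM in the Col10a1-led cluster and 135 CPM in the pre-hypertrophic-like class, with 7 of its 10 genes past 2-fold higher and none at 0 in either. The macrophage list was at 26.9 and 23.5 CPM, with 1 of 8 genes higher and 1 at 0 in the Col10a1-led cluster, and the monocyte list, which holds Fn1, at 11216 and 2053 CPM with 3 of 7 higher. Fn1 alone was at 10388 and 2005 CPM. Both Fn1 and F13a1, another gene of that list, were higher in the Col10a1-led cluster than in any other class, monocyte-like cells included. Lyz2, also past 2-fold higher here, was highest in monocyte-like cells (10996 CPM). The osteoclast list summed to 187 and 27.3 CPM, with 3 of 8 higher (Acp5, Ctsk and Mmp9) and 2 at 0 in each. The endothelial list summed to 19.4 and 34.1 CPM, with 0 of 9 past 2-fold. The part of these lists in the result was not tested. Without the cells that had a UMI of the leucocyte gene Ptprc, 14 in each class, the log2 ratios were 1.24 for Tgfb1, 1.26 for Tgfb3, 3.29 for Ltbp1 and 2.24 for Ltbp3. With at most 5% mitochondrial UMIs per cell the Ltbp1 ratio was 1.91.

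In the pathway list, 35 genes were tested, with 8 past 2-fold higher and 5 lower, beside 22.4% and 5.85% of all genes tested. The higher ones were thus about as frequent as among all genes. Fibronectin Fn1 (10388 against 2005 CPM) and Fbn1 (14.9 against 2.77 CPM) were higher and fibromodulin Fmod, which binds TGF-beta, lower (101 against 956 CPM). The integrin subunits Itgb3 (30.3 against 0.718 CPM) and Itgb5 (128 against 31.7 CPM), which pair with Itgav to free the ligand, were higher and Thbs1 lower (247 against 1181 CPM). Tgif1 (log2 ratio 3.52) and Smurf1 (1.53), a ubiquitin ligase that acts on receptors and SMADs, were higher. Of the response genes, Ctgf was lower (-1.41) and Col1a1 higher (1.44). No accessory receptor or transducer passed 2-fold.

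Along the osteoblast lineage, 438 mature osteoblast-like cells were compared with 502 immature osteoblast-like cells. Most of the genes were lower in the mature cells and Tgfb1 was higher, at 217 against 115 CPM (log2 ratio 0.91, 0.78 to 1.03), short of 2-fold. Tgfb3 was 11.5 against 43.7 CPM (-1.84, -2.15 to -1.54) and Tgfbr3 6.65 against 35.6 CPM (-2.26, -2.62 to -1.89). Tgfb2 was 34.5 against 71.2 CPM (-1.02, -1.23 to -0.82), with an interval that crossed the 2-fold line, and between -2.03 and -0.42 under other settings. Ltbp3 was 67.1 against 114 CPM (-0.75, -0.90 to -0.60), Tgfbr1 31.9 against 46.2 CPM (-0.52) and Tgfbr2 31.1 against 38.4 CPM (-0.30). Ltbp1 was 33.7 against 40.0 CPM (-0.24, -0.47 to -0.01), and Ltbp2, below 10 CPM in both, had 3 UMIs against 16 (-1.398, -2.04 to -0.75). Of 8 genes tested, 0 were past 2-fold higher and 3 lower, beside 5.14% and 14.3% of all 8350 genes, with medians of -0.64 and -0.42. Type I collagen transcripts filled much of the mature cells (Col1a1 61062 against 8181 CPM). With the 50 most abundant genes left out of the denominator, the median of all genes was -0.23, Tgfb1 was past 2-fold higher (log2 ratio 1.11), Tgfb2 no longer past 2-fold lower (-0.83), and the count became 1 higher and 2 lower. The macrophage marker list summed to 134 CPM in mature and 20.4 CPM in immature osteoblast-like cells, with 4 of its 8 genes past 2-fold higher and none at 0, and 6 of the 10 neutrophil genes were also past 2-fold higher. Without the Ptprc-positive cells, 50 mature and 19 immature, the Tgfb1 ratio was 0.91. With at least 2000 genes per cell it was 0.34.

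Inside the mature class, a sub-cluster of 31 cells with the osteocyte genes Dmp1 and Phex had the highest Tgfb1 level of any osteogenic group described, 366 CPM (316 to 421). The 144 cells of the Car3-led sub-cluster had 215 CPM (199 to 233). The 31 cells also had 111 CPM of Ltbp1 (84.7 to 144) against 36.7 CPM (29.96 to 44.4), and 136 CPM of Ltbp3 (106 to 171) against 71.9 CPM (62.4 to 82.5). Their Tgfbr2 level was 108 CPM (81.5 to 139) against 23.3 CPM (17.996 to 29.6). No Tgfbr3 UMI was counted in them. Osteocytes are the cells embedded in bone matrix. The other 4 sub-clusters were left unnamed. Neutrophil, erythroid or cartilage genes led those of 136, 73 and 19 cells against the rest of the class, with 212, 196 and 133 CPM of Tgfb1. The 35 Marco-led cells had 178 CPM of Ptprc and 254 CPM of Tgfb1. Dmp1 and Phex also stood among the first 10 genes of the 19 and of the 35 cells. Dmp1 and Phex alone therefore do not set the 31 cells apart. The level of the Car3-led cells was thus close to that of the whole class (217 CPM).

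Of the pathway list, 37 genes were tested in this comparison, with 4 past 2-fold higher and 8 lower in mature cells. Among all genes tested, 5.14% were higher and 14.3% lower. Fbn1 was 18.5 against 244 CPM and Dcn 2344 against 978 CPM. Itgb3 (log2 ratio -1.62) and Itgav (-1.37) were lower and Thbs1 higher (1.70). Eng was lower (-1.74), as were Ctgf (-2.49) and Tgfb1i1 (-1.96), and Col1a1 was higher (2.90). No transducer or inhibitor passed 2-fold.

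The reporter addressed whether osteogenic cells that descend from HCs differ from the rest. Cells with more than 14 UMIs of WPRE, a viral element in the reporter transcript, were taken as reporter-positive. They made up 83.2% of the Col10a1-led cluster (74.7% to 89.7%, exact binomial 95% interval), 33.6% of mature (29.1% to 38.2%) and 19.5% of immature osteoblast-like cells (16.1% to 23.3%), 18.4% of Cxcl12-abundant marrow stromal-like cells (13.9% to 23.5%), 8.91% of pericyte or smooth muscle-like cells (4.16% to 16.2%) and 0.119% of endothelial-like cells. The study set the cutoff of 14 UMIs to match its measured frequency of tdTomato-positive HCs, so the Col10a1-led share is not independent of it. The cutoff is also a raw count. Median UMIs were 33055 in the Col10a1-led cluster, 18970 in mature osteoblast-like, 11182 in immature osteoblast-like and 10446 in marrow stromal-like cells. Pre-hypertrophic-like cells, at 32124, had 4.64% reporter-positive cells. The part of depth in these shares was not tested. Among osteogenic cells, 294 were reporter-positive and 913 negative. None of the 8 genes tested was past 2-fold in either direction, beside 0.68% of all 8089 genes higher and 1.45% lower, with medians of -0.06 and -0.02. Tgfb1 was 191 against 142 CPM (log2 ratio 0.43, 0.32 to 0.53), Ltbp3 105 against 80.0 CPM (0.38, 0.24 to 0.53) and Ltbp1 48.7 against 41.8 CPM (0.22, 0.01 to 0.42). Tgfbr3 was 31.9 against 48.6 CPM (-0.59, -0.83 to -0.36), Tgfb3 23.4 against 30.6 CPM (-0.37, -0.65 to -0.09) and Tgfb2 50.1 against 53.3 CPM (-0.09, -0.29 to 0.11). The Tgfb2 ratio lay between -0.65 and 0.78 under other settings. Ltbp2, below 10 CPM in both, was 3.50 against 7.25 CPM (-0.87, -1.44 to -0.31). Tgfbr1 (-0.20, -0.43 to 0.02) and Tgfbr2 (-0.03, -0.25 to 0.20) had intervals that included 0. The endothelial marker list summed to 36.3 CPM in reporter-positive and 106 CPM in reporter-negative cells, with 4 of its 9 genes past 2-fold lower and none at 0. The osteoclast list summed to 1100 and 618 CPM, with 1 of 8 higher (Mmp9) and 2 and 1 at 0. Mmp9 was highest in immature osteoblast-like cells (1198 CPM), which are themselves osteogenic. The part of these lists in the ratios was not tested.

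With cells of at most 5% mitochondrial UMIs, Tgfb3 (-1.02) and Tgfbr3 (-1.04) were past 2-fold lower. Of the 294 reporter-positive cells, 147 were mature osteoblast-like, so the values were also taken within each class. Ltbp3 was higher in reporter-positive cells in all 3 classes, with log2 ratios of 0.60 (0.38 to 0.82) in immature osteoblast-like, 0.38 (0.15 to 0.61) in mature osteoblast-like and 0.41 (0.03 to 0.79) in marrow stromal-like cells. Tgfb1 was higher by 0.41 (0.18 to 0.63), 0.21 (0.08 to 0.34) and 0.26 (-0.20 to 0.72) in the same order. The Tgfbr3 ratios within classes were 0.26 (-0.15 to 0.66), 0.05 (-0.61 to 0.70) and -0.30 (-0.63 to 0.03), with intervals that all included 0. Tgfb3 was past 2-fold lower in reporter-positive mature osteoblast-like cells (5.89 against 14.5 CPM, -1.17, -1.79 to -0.54), with 19 UMIs in the former, and its ratios were 0.04 (-0.34 to 0.42) and 0.47 (-0.05 to 0.99) in immature osteoblast-like and marrow stromal-like cells. Ltbp1 had ratios of 0.53 (0.16 to 0.90), 0.29 (-0.02 to 0.61) and 0.27 (-0.15 to 0.68) in immature, mature and stromal-like cells. Tgfb2 lay on opposite sides in mature osteoblast-like cells (26.7 against 38.7 CPM, -0.52, -0.87 to -0.18) and marrow stromal-like cells (104 against 57.2 CPM, 0.85, 0.43 to 1.26). Whether these 2 ratios differ was not tested. None of the 37 pathway genes tested was past 2-fold between reporter-positive and reporter-negative osteogenic cells. Among all genes tested, 0.68% were higher and 1.45% lower. All cells came from 1 mouse in which the reporter marks the cells that also lost 1 Irx3 allele, so that origin and allele cannot be told apart.

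Vessels were compared with the skeletal cells around them, as TGF-beta signalling between endothelium and mural cells is needed for stable vessels. The 944 vascular cells had more Tgfb1 and Tgfbr2 than the 3436 skeletal cells (chondrogenic, osteogenic and fibroblast-like) and less Tgfb2 and Tgfb3. Tgfb1 was 264 against 95.2 CPM (log2 ratio 1.46, 1.399 to 1.52) and Tgfbr2 165 against 49.0 CPM (1.73, 1.65 to 1.81). Tgfb2 was 50.6 against 106 CPM (-1.05, -1.17 to -0.93) and Tgfb3 6.84 against 16.5 CPM (-1.16, -1.45 to -0.87). Tgfbr1 (53.6 against 26.9 CPM, 0.97, 0.84 to 1.10) and Tgfbr3 (44.1 against 22.3 CPM, 0.95, 0.81 to 1.09) lay just inside 2-fold, and their intervals crossed it. Ltbp3 (-0.76, -0.90 to -0.62) and Ltbp1 (-0.67, -0.90 to -0.44) were lower, as was Ltbp2 (0.513 against 7.17 CPM, -2.43, -2.84 to -2.02), which was below 10 CPM in both. Of 8 genes tested, 2 were past 2-fold higher and 2 lower, beside 25.4% and 12.1% of all 8980 genes, with medians of 0.14 and 0.36. The count of higher genes was 4 under 6 of the other settings, in which Tgfbr1 and Tgfbr3 crossed the line. The differences in Tgfb1, Tgfbr2, Tgfb2 and Tgfb3 were those of the 843 endothelial-like cells and not of the 101 pericyte or smooth muscle-like cells. The latter had 220 CPM of Tgfb2 and 49.2 CPM of Tgfb3 (36.8 to 64.3), above the skeletal levels. Their Tgfb1 (83.5 CPM, 67.1 to 103) and Tgfbr2 levels (42.7 CPM, 31.2 to 56.9) were not above the skeletal ones.

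In the pathway list, 40 genes were tested, with 16 past 2-fold higher and 11 lower in vascular cells. Among all genes tested, 25.4% were higher and 12.1% lower. Of 5 genes listed as accessory receptors, 3 were past 2-fold higher and 0 lower. Eng (541 against 11.9 CPM) and Acvrl1 (64.5 against 4.18 CPM), the endothelial co-receptor and type I receptor whose loss causes vascular malformations, were higher. So was Fkbp1a (744 against 222 CPM), which is listed with them but does not encode a receptor. Lrrc32, which holds latent TGF-beta at the cell surface, was 104 against 2.21 CPM and Ltbp4, another latent binding protein, 258 against 12.98 CPM, while Dcn was lower (36.1 against 732 CPM). Of the activators, Itgb1 was higher (log2 ratio 1.52), and Itgb5 (-1.99) and Thbs1 (-1.396) were lower. Smad2 was the only transducer past 2-fold (1.02, 0.89 to 1.14). Of 9 inhibitors, 5 were higher and 0 lower, led by Tgif1 (2.31), Smurf1 (1.86) and Skil (1.32). Of 7 response genes, 2 were past 2-fold higher and 3 lower, with Ctgf (-2.64) and Col1a1 (-4.75) among the lower ones.

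In blood against skeletal cells, Tgfb1 and the signalling receptors stayed within 2-fold and the other genes tested were lower. Tgfb1 was 165 against 95.2 CPM (log2 ratio 0.79, 0.74 to 0.84), Tgfbr1 44.3 against 26.9 CPM (0.70, 0.62 to 0.79) and Tgfbr2 37.2 against 49.0 CPM (-0.39, -0.47 to -0.31). Tgfb2 was 2.58 against 106 CPM (-4.90, -5.08 to -4.72), Ltbp3 2.49 against 61.8 CPM (-4.17, -4.35 to -3.99) and Tgfb3 0.836 against 16.5 CPM (-3.25). Ltbp1 (1.84 against 20.9 CPM, -2.94) and Tgfbr3 (3.93 against 22.3 CPM, -2.24) were also lower, and Ltbp2, below 10 CPM in both, was 0.456 against 7.17 CPM (-2.49, -2.70 to -2.27). Of 8 genes tested, 0 were past 2-fold higher and 5 lower, beside 23.7% and 21.6% of all 9071 genes, with medians of -2.59 and 0.25. Vascular and blood cells were set against the same skeletal cells.

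Of the pathway list, 38 genes were tested in blood, with 2 past 2-fold higher and 26 lower, beside 23.7% and 21.6% of all genes tested. Nrros, which takes the place of a latent binder on macrophages and microglia, was 43.8 against 2.32 CPM, and its highest class was plasmacytoid dendritic-like cells with 105 CPM, followed by monocyte-like cells with 92.3 CPM. Tgif1 was the other gene that was higher (79.0 against 24.4 CPM). The proteoglycans Dcn (log2 ratio -5.67), Fmod (-5.19) and Bgn (-5.10) were lower, as were Itgb5 (-2.13) and Furin (-1.05), the protease that cuts the ligand from its propeptide. Among genes listed as accessory receptors, Cd109 (-3.03), Bambi (-2.98) and Fkbp1a (-1.11), which does not encode a receptor, were lower. Zfyve9 (-1.36), which presents SMADs to the receptor, was lower among transducers. The feedback inhibitors Pmepa1 (-2.65), Smad6 (-2.29) and Smad7 (-1.75) were lower, as were all 7 response genes, among them Col1a1 (-5.24) and Ctgf (-5.12).

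**Figure D5:**
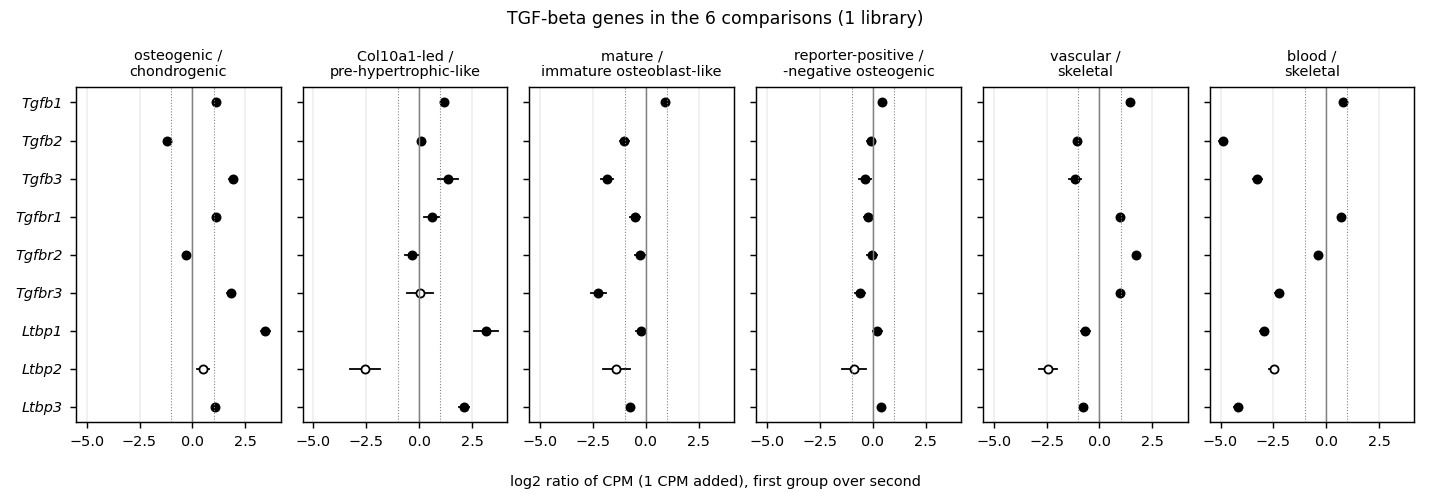
Log2 ratio of CPM (x axes, 1 CPM added to both sides) of the 9 genes (y axis) in the 6 comparisons, with counting-error 95% intervals. Filled points had at least 10 CPM on either side, open points did not, and dotted lines mark 2-fold. The largest ratio in size is that of Tgfb2 in blood cells (-4.90), while in reporter-positive osteogenic cells all filled points lie within 2-fold.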

How the data were processed

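Cells of 1 library, sequenced under 4 entries, were analysed together. Per the labels and the study's methods, the authors aligned reads with Cell Ranger 3.1.0 to mm10, to which tdTomato and WPRE were added, and deposited raw UMI counts per gene and barcode. Of 31053 gene IDs, 31011 matched the GENCODE annotation.

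From these counts, barcodes were kept that had 1600 or more genes, no more than 10% mitochondrial UMIs and no more than 50% ribosomal UMIs (2623 to 85279 UMIs per cell). In Python 3.11.15 with scanpy 1.11.5, 2000 variable genes were chosen, leaving out the 9 genes, the 43 pathway genes, Pth1r and Mmp genes, and cells were clustered on 30 components, 20 neighbours and a Leiden resolution of 1. Clusters were named from 27 marker lists, with limits set after the clusters were seen, and endothelial, mature osteoblast, basophil or mast and macrophage and osteoclast-like clusters were sub-clustered. The genes and lists were chosen with earlier results of these data known. Doublets were left in, and Scrublet, run to leave them out as an alternative, marked 588 of 14181 barcodes (4.15%). Of the 8255 cells kept it marked 460 (5.57%). In named classes the share ranged from 0% in late and early erythroid-like to 14.2% in cycling chondrocyte-like cells. It was 10.8% in the Tnf-led blood group, 9.13% in mature osteoblast-like and 8.54% in endothelial-like cells.

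Counts were summed by class as CPM. With 1 library there is no test. Log2 ratios have 1 CPM added and a counting-error interval, which was run on simulated data. The simulated counts were Poisson, as the interval assumes, for large groups and well-counted genes only. They therefore do not check spread between cells, small groups or low counts. A gene was called past 2-fold where either group had at least 10 CPM. All 9 genes are named in each of the 6 comparisons, but not each within a reporter class. From the pathway list, up to 3 genes of each role past 2-fold with the largest ratio are named, and for each of the 9 genes the 3 most correlated of those with at least 100 UMIs. Some genes that this rule or the annotation would name are not reported here. Sub-clusters were named after their values were seen. UMIs count molecules, but intervals and floors (3 counts) cover counting error only. Each of the 4 sequencing entries belongs to the same library, so no entry counts as a replicate.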

Additional observations from a re-analysis of the deposited data

Results flagged for a closer look

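The 5926 barcodes left out for few genes or high mitochondrial or ribosomal content, which no comparison used, still held UMIs of all 9 genes above the limit of 0.143 CPM that a count of 0 allows in them. Tgfb1 was at 91.1 CPM, Tgfb2 at 30.9 CPM and Tgfb3 at 4.90 CPM. Tgfbr1 was at 33 CPM, Tgfbr2 at 52 CPM and Tgfbr3 at 9.84 CPM. Ltbp1 was at 8.23 CPM, Ltbp2 at 4.71 CPM and Ltbp3 at 33.5 CPM. In the cells kept, the levels were 136 CPM for Tgfb1, 60.9 CPM for Tgfb2 and 9.28 CPM for Tgfb3, while Tgfbr2 (54.1 CPM) and Ltbp3 (35.5 CPM) were close to those of the left-out barcodes.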

How the results depend on the processing

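Counts of genes were recomputed under up to 13 other settings, where a setting bore on the comparison and gave its classes, and 1 chosen after seeing the data (leaving out the 230 of 4380 named cells outside the blood classes that had a Ptprc UMI). Of 192 such counts, 173 stayed within 1.5 times. All 27 of 54 log2 ratios that were at least 1 in size kept their direction under every alternative that gave them. Levels and the size of ratios were less fixed. Among recomputed class levels, 480 were marked as moved and 1689 as the same. Among recomputed log2 ratios, 151 were marked as moved, 4 as reversed and 493 as the same. The printed intervals cover counting error only and do not include these shifts.

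In osteogenic against chondrogenic cells, the count of lower genes, 1 here, was 0 with 2000 genes as the minimum, 5% mitochondrial UMIs as the maximum, resolution 0.6, 3000 variable genes or cells marked by Scrublet left out, where the Tgfb2 ratio was -0.99 to -0.79. In vascular against skeletal cells, the count of higher genes, 2 here, was 4 at 5% mitochondrial UMIs, resolution 0.6 or 1.5, with 3000 variable genes, with the 9 genes and the pathway genes allowed among the variable genes, and without Scrublet-marked cells. The count of lower genes, 2 here, was 1 at resolution 0.6 and without the Ptprc-positive cells. In mature against immature osteoblast-like cells, the count of higher genes, 0 here, was 1 at 5% or 20% mitochondrial UMIs, at resolution 0.6, with the 50 most abundant genes left out of the denominator and with the mean over cells of each cell's CPM. In reporter-positive cells, the count of lower genes, 0 here, was 2 at 5% mitochondrial UMIs, a limit that left 4864 cells. The cause of these shifts was not tested.

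Some ratios under 1 in size turned sign. In reporter-positive cells Ltbp1 (-0.26) and Ltbp2 (0.054) at 5% mitochondrial UMIs and Ltbp2 (0.12) with tdTomato UMIs in place of WPRE did so, as did Tgfb2 (-0.65 to 0.78 over the settings) and Tgfbr2 (-0.11 to 0.20). In mature osteoblast-like cells Ltbp1 did so (0.064) with the mean over cells. In the Col10a1-led cluster against pre-hypertrophic-like cells the ranges of Tgfb2 (-0.70 to 0.29), Tgfbr2 (-0.72 to 0.00455) and Tgfbr3 (-1.84 to 0.60) included 0. With a minimum of 1000 genes or a maximum of 20% mitochondrial UMIs no separate pre-hypertrophic class formed, and that comparison has no value. The class with the most Tgfb1 was the Tnf-led blood, endothelial or basophil or mast-like class, depending on the setting. Without Scrublet-marked cells, the blood class without a marker name had 406 CPM of Tgfb1, against 328 CPM (301 to 356) in the main setting. The first class of other genes changed too. At 5% mitochondrial UMIs it was Ucma-rich chondrocyte-like for Tgfb2, fibroblast-like for Tgfbr1 and immature osteoblast-like for Tgfbr3. It was immature osteoblast-like for Tgfbr3 at resolution 0.6 and at a minimum of 1000 genes, where it was other chondrogenic for Tgfbr2 (230.4 CPM). Under these settings no separate marrow stromal-like class formed. At 5% mitochondrial UMIs there was also no pericyte or smooth muscle-like class and no joint macrophage and osteoclast-like class. At resolution 1.5 the first class for Tgfbr1 was plasmacytoid dendritic-like. There the macrophage-like (239 cells) and osteoclast-like cells (195 cells) formed separate classes. Only class names of the main clustering were ranked, so classes that split, merged or did not form had no rank. Leaving out a replicate was not possible with 1 library. No paired analysis was possible because the 4 entries belong to 1 library and there is 1 group.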
